A study of Caenorhabditis elegans with 2 samples.

Results

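The nuclear genes of the mitochondrial respiratory chain and of ATP synthase were examined as binding sites of the transcription factor HINF-1 in Caenorhabditis elegans. They were chosen by name, taking every gene of assembly WBcel235 whose name starts with nuo-, cox-, cyc-, atp-, sdha-, sdhb-, sdhc-, sdhd-, isp- or ucr-. This gave 39 genes of 46890 annotated on the 6 nuclear chromosomes, and all 39 were read against the 19973 protein-coding genes. The data came from chromatin immunoprecipitation and sequencing (ChIP-seq) with an antibody against GFP in whole animals of strain RW12232. In this strain a CRISPR insertion, st12232[F39B2.1::TY1::EGFP::3xFLAG], tags the product of hinf-1 (F39B2.1), so the antibody recovers the tagged protein. Animals were young adults, 65 hours old, from cultures synchronised by bleaching and L1 starvation, and 2 biological replicates of this 1 group were used. Both replicates carried the same insertion, and neither an untagged strain nor a second condition was analysed here. Whole animals hold many tissues, so strong binding in few cells and weak binding in many cannot be told apart.

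The respiratory chain of the inner mitochondrial membrane passes electrons from NADH through complex I, and from succinate through complex II, to ubiquinone. Complex III hands them to cytochrome c, a small soluble carrier, and complex IV passes them to oxygen. Complex V, the ATP synthase, uses the proton gradient built along the way to make ATP. Most subunits are encoded in the nucleus. In worms many genes are trans-spliced and some are transcribed together as operons, so an annotated 5' end need not be a transcription start. HINF-1 is related to HINFP, which in humans activates histone H4 genes.

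The authors deposited a conservative list of 567 peaks that repeated between the replicates, an optimal list of 630, and thresholded lists of 209 peaks for replicate 1 and 272 for replicate 2. Their peaks all have a global irreproducible discovery rate (IDR) of 0.01 or less, and this rate is lower the better a peak's rank repeats. The ranked lists behind them hold more peaks at that rate, 696, 764, 300 and 368 in the same order, and what removed the rest is not stated. These longer ranked lists held 89784 peaks (conservative), 96558 (optimal), 53566 (replicate 1) and 51539 (replicate 2). Each peak carries a signal value from the authors' peak caller, which can be read only within its own list, and sequencing depth is unknown from these files. Median signal was 64.7 in the conservative list and 18.5 in its ranked list. A gene was counted when a summit, the highest point of a peak, lay within 500 bp of its annotated 5' end.

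Of the 39 genes, 4 had a conservative peak, namely the cytochrome c gene cyc-2.1, the complex IV subunit genes cox-5A and cox-5B, and the ATP synthase gene atp-1. That is 10.3% of the genes, against 1.32% of all protein-coding genes. In the optimal list 3 genes had a peak (7.69%, against 1.48%), and cox-5B was the one missing. In the thresholded lists of single replicates the counts were 2 in replicate 1 (background 0.546%) and 1 in replicate 2 (background 0.666%). Only cyc-2.1 had a peak in both of these lists, where 0.330% of protein-coding genes did. Counting any of the 4 thresholded lists, the same 4 genes were found, against 1.69% of protein-coding genes. The other 35 genes had no thresholded peak within 500 bp. No test was made, since genes and peaks are not replicates of a condition.

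The strongest peak was at cyc-2.1 (WBGene00017121, IV:4747895-4749012, minus strand), which encodes a cytochrome c. The peak spanned IV:4748865-4749094, and its summit lay 32 bp downstream of the 5' end, in the 5' UTR. Its signal was 88.8 in the conservative ranked list (rank 195 of 89784), 45.5 in replicate 1 and 47.0 in replicate 2. Among protein-coding genes, 99.6% had a lower best signal in the conservative ranked list, 99.7% in replicate 1 and 99.5% in replicate 2, genes with no summit being counted as lower. Summits of the separate replicates lay 29 and 37 bp downstream, so the site was high in both and at nearly the same place. It ranked 116 in both the conservative and the optimal list, 82 in replicate 1 and 152 in replicate 2. The second cytochrome c gene, cyc-2.2, had a summit 33 bp downstream with a signal of 15.9, and 49.5% of protein-coding genes were lower. That signal was below the list median of 18.5, and its −log10 IDR of 0.078 was the lowest value in the list. In replicate 2 cyc-2.2 had no summit within 500 bp. The 2 cytochrome c genes were thus far apart in signal.

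The cyc-2.1 peak has a neighbour. The gene lies 110 bp downstream of rpl-20, a cytosolic ribosomal protein gene on the same strand (IV:4749123-4749778). On the other side tctn-1, also on the same strand, begins 62 bp past cyc-2.1. Whether these genes are transcribed together was not tested, so the cyc-2.1 peak need not mark a transcription start of cyc-2.1. Beyond rpl-20 a second conservative peak (IV:4749991-4750220) had its summit 1094 bp upstream of cyc-2.1 and 134 bp upstream of Y17G9B.5, which is transcribed the other way. This second peak lies between the 5' ends of rpl-20 and Y17G9B.5 and cannot be assigned to one of them by position. Its signal of 117.7 was above that of the cyc-2.1 peak, and it was in the thresholded lists of both replicates, at 48.6 and 67.0. The 5' end of cyc-2.1 also depends on the annotation. RefSeq places it 563 bp further downstream, and the summit then lies 531 bp upstream and outside the 500 bp window.

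The gene cox-5A (WBGene00012553, III:12905491-12906619, plus strand), a nuclear-encoded subunit of cytochrome c oxidase, had nearly the same signal. Its peak, III:12905068-12905297, was intergenic with the summit 308 bp upstream of the 5' end. The signal was 87.4 in the conservative ranked list (rank 198), 43.6 in replicate 1 and 45.9 in replicate 2, above 99.6%, 99.7% and 99.5% of protein-coding genes. The replicate summits lay 310 and 275 bp upstream. The peak ranked 91 in the thresholded list of replicate 1. In the ranked list of replicate 2 its −log10 IDR was 1.72, short of the threshold of 2, and it was absent from the thresholded list of that replicate. A second conservative peak, III:12906677-12906906, had its summit 173 bp past the 3' end of cox-5A and a signal of 70.2. It was also in the optimal list and in replicate 1 at 38.7. The annotation used has no other gene within 3000 bp of cox-5A, so this gene is flanked by a peak on each side.

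The reference sequence under the peaks at both genes is shown to let the sites be compared, as windows reaching 50 bp to each side of the summit, in the gene's own direction. For cyc-2.1 the part of the peak before the annotated gene is shown, 82 bp. Capitals mark CG dinucleotides, and all sequence is from WBcel235, which ce11 names. The first 2 windows are III:12905133-12905233 and III:12906742-12906842 on the plus strand. The other 2 are IV:4749013-4749094 and IV:4750056-4750156 on the minus strand. The last, labelled by rpl-20, lies between rpl-20 and Y17G9B.5 and is nearer to the 5' end of Y17G9B.5.
cox-5A upstream: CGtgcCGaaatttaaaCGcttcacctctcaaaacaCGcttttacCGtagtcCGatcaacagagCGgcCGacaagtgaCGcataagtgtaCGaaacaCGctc
cox-5A past the 3' end: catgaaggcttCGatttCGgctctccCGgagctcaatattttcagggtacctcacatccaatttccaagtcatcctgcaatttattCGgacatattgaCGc
cyc-2.1 upstream part of the peak: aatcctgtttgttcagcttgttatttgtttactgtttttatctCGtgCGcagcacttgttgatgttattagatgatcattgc
rpl-20 upstream: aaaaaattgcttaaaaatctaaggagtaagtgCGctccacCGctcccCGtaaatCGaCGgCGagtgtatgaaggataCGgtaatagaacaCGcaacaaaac
The cox-5A upstream window held 11 CG dinucleotides and the one past its 3' end held 5. The rpl-20 window held 8 and the cyc-2.1 stretch 2. The cyc-2.1 stretch has a GC content of 35.4% and does not hold the summit. Over 101 bp centred on the cyc-2.1 summit there were 2 CG dinucleotides and a GC content of 36.6%. The cox-5A upstream window of the same length had 11 and 49.5%, so the 2 strongest sites of the respiratory chain genes differed widely in CG content.

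Within 50 bp of the 4 conservative summits, 6 words were searched on both strands and none was found. They were CGTCCG (in 2.29% of all 567 conservative windows), GGGACACA (3%), CGCGCGC (5.11%), GAGAGA (10.1%), TTTCAG (11.3%) and CACGTG (3%). The first of them is part of the site described for human HINFP. Across the 30 genes with a summit in the conservative ranked list, TTTCAG was in 6 windows (20%, against 17.7% of all ranked windows) and CGTCCG in 1 (3.33%, against 1.49%), and the other 4 words were in none. The window past the 3' end of cox-5A holds TTTCAG, visible in the sequence above. That a word was not found says only that its letters are not in these windows. Median GC content was 47.0% in the 4 windows (range 36.6% to 49.5%), 45.5% in all conservative windows and 39.6% in all ranked windows. All 31-mers around the 4 summits occur once in the genome, so none of these peaks lies in repeated sequence.

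The gene atp-1 (WBGene00010419, I:12652277-12654655, plus strand) encodes the alpha subunit of the ATP synthase. Its peak, I:12652133-12652362, had an intergenic summit 29 bp upstream of the 5' end. The signal was 56.3 in the conservative ranked list (rank 586), 29.5 in replicate 1 and 30.6 in replicate 2, above 98.8%, 99.1% and 98.2% of protein-coding genes. It passed the threshold in the conservative and optimal lists, at ranks 413 and 434, and in neither replicate alone (−log10 IDR of 1.102 and 1.01). The gene mcrs-1 is transcribed away from atp-1 with its 5' end 190 bp away, so the peak cannot be assigned to one of them by position. Both signals of the separate replicates lie far up the gene order, though the IDR of neither passed.

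The gene cox-5B (WBGene00000371, I:9788725-9790050, plus strand), another complex IV subunit gene, had a peak at I:9788532-9788761 with an intergenic summit 78 bp upstream. The signal was 55.2 in the conservative ranked list (rank 629), 31.5 in replicate 1 and 30.0 in replicate 2, above 98.7%, 99.3% and 98.1% of protein-coding genes. Its place was thus close to that of atp-1 in all of these lists. It was in the conservative list only, at rank 437, and its −log10 IDR in the optimal ranked list was 1.87. Between cox-5B and tba-1, an alpha-tubulin gene transcribed the other way with its 5' end 1101 bp away, lay another conservative peak. Its summit was 801 bp upstream of cox-5B and 300 bp upstream of tba-1, with a signal of 50.9. A further conservative peak, with a signal of 47.5, lay in an intron of tba-1. RefSeq places the 5' end of cox-5B 284 bp further downstream, and the summit is then 362 bp upstream. For atp-1 and cox-5A both annotations give the same 5' end.

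**Figure D1:**
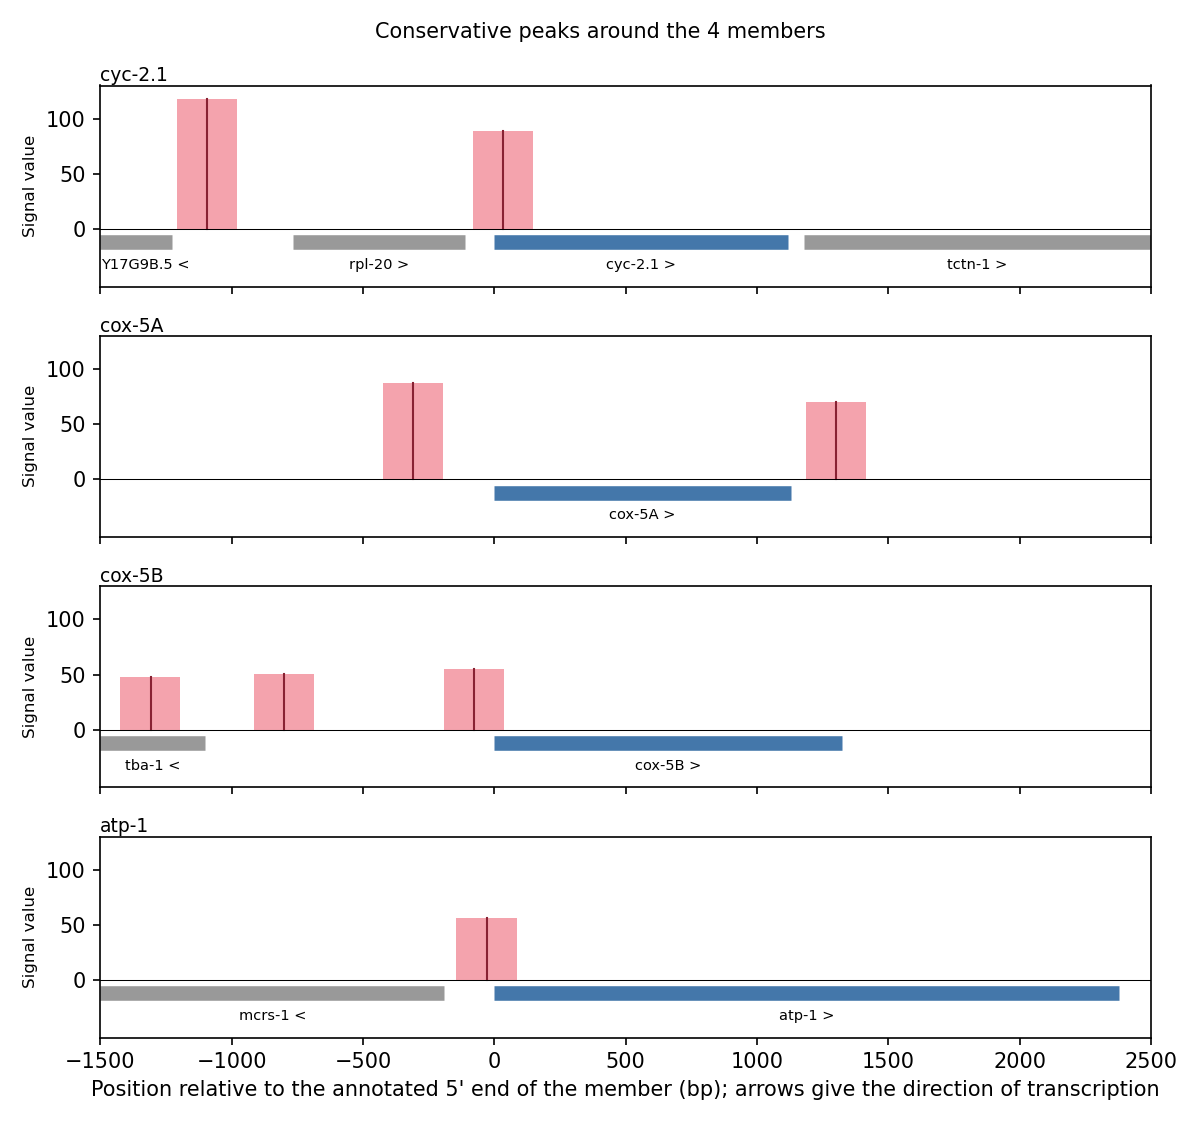
Conservative peaks around cyc-2.1, cox-5A, cox-5B and atp-1, drawn by distance in bp from the annotated 5' end of each gene (x axis) and by signal value in the conservative list (y axis), with gene models below and arrows for the direction of transcription. The sites at cyc-2.1 and cox-5A each have a second peak nearby, cox-5B has 2 further peaks towards tba-1, and atp-1 has a single peak between it and mcrs-1.

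Most of the respiratory chain genes had a weaker summit. In the conservative ranked list 30 of 39 (76.9%) had one within 500 bp, against 66.6% of all protein-coding genes, and in the optimal ranked list 34 of 39 (87.2%), against 69.8%. The replicate ranked lists gave 25 (64.1%, against 47.7%) and 26 (66.7%, against 45.2%). From here on, a summit, signal or top decile with no list named is that of the conservative ranked list. The median best signal was 30.8 over the 30 genes and 21.4 over all protein-coding genes with a summit. The median gene of the 39 was above 79.7% of protein-coding genes. The top decile, meaning genes above at least 90% of protein-coding genes, began at a signal of 31.9 and held 13 of the 39 genes (33.3%, against 9.99%). Apart from the 4 with a conservative peak, 9 of the other 35 genes were in it. In replicate 1 it held 10 (25.6%, against 10%) and in replicate 2 it held 12 (30.8%, against 10%). In both replicates 5 genes were in it (12.8%, against 3.41%), the 4 with a conservative peak and atp-5.

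**Figure D2:**
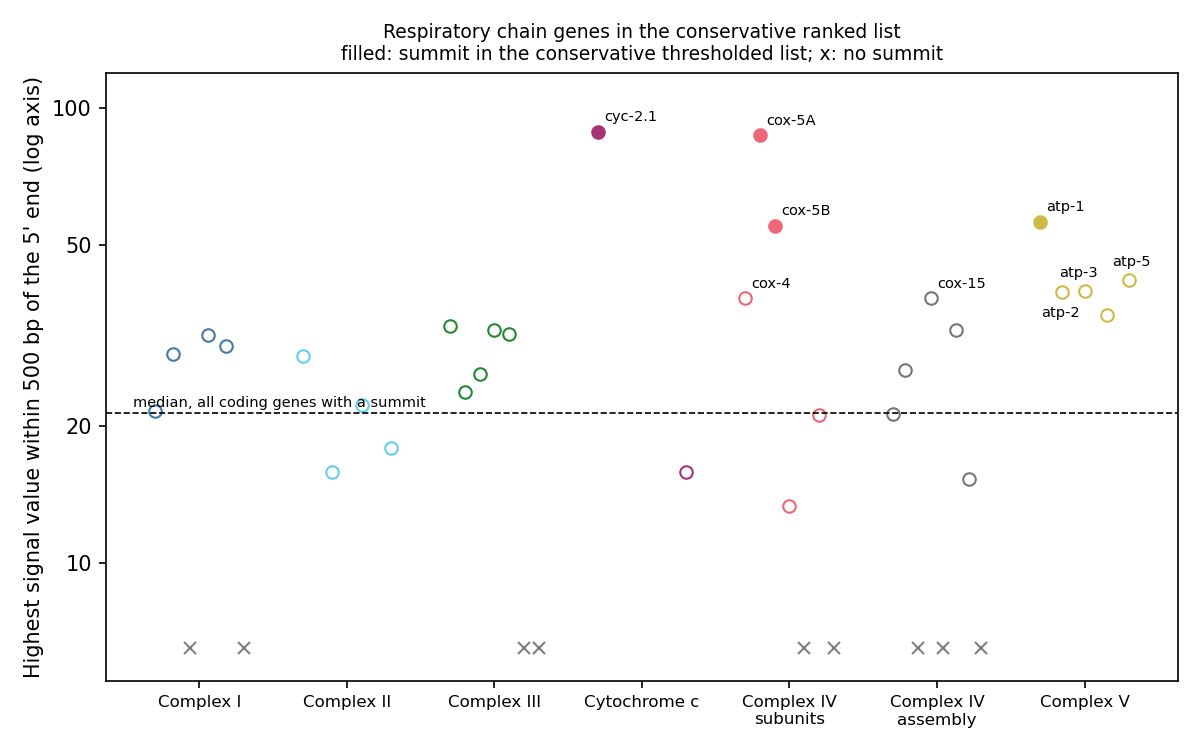
Highest signal value within 500 bp of the 5' end in the conservative ranked list (y axis, logarithmic) for each of the 39 genes, grouped by complex (x axis), with filled points for genes with a conservative peak and crosses for the 9 genes with no summit. All 5 complex V genes matched by the name rule lie between 35.2 and 56.3, while the complex I and II genes matched by it reach 31.6 and 28.5. Genes of these complexes with other names are not drawn.

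Among the 39 genes, complex V had the highest median place in the gene order of any group. All 5 of its genes matched by the name rule had a ranked summit, with signals of 35.2 to 56.3 (median 39.6), and all 5 were in the top decile of protein-coding genes. In the ranked list of replicate 1, 3 of the 5 were in the top decile, and in that of replicate 2, 4 were. After atp-1 came atp-5, the gene of subunit d of the stalk, with a signal of 41.9 at 216 bp downstream, in its own coding sequence. Its replicate signals were 16.9 and 24.2, above 91.8% and 95.4% of protein-coding genes. The gene atp-3 encodes the oligomycin sensitivity subunit, and its summit had a signal of 39.6 at 432 bp upstream, in the coding sequence of F27C1.2. Its replicates differed, with signals of 11.6 (above 75.1%) and 27.0 (above 97.1%). RefSeq places the 5' end of atp-3 89 bp further downstream, and this summit is then 521 bp upstream, outside the 500 bp window. The counts given for complex V are those with Ensembl 5' ends. The gene atp-2, for the catalytic beta subunit, had 39.4 at 341 bp downstream in its own coding sequence. Its replicates had 24.4 (above 98.2%) at 334 bp downstream and 20.01 (above 89.9%) at 483 bp downstream. The gene atp-4, for coupling factor 6, had 35.2 at 91 bp downstream, with 14.6 (above 86.5%) and 23.8 (above 95.1%). Of the 5 genes, atp-1 alone passed the IDR threshold, and the other 4 had −log10 IDR values of 0.52 to 1.19.

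**Figure D3:**
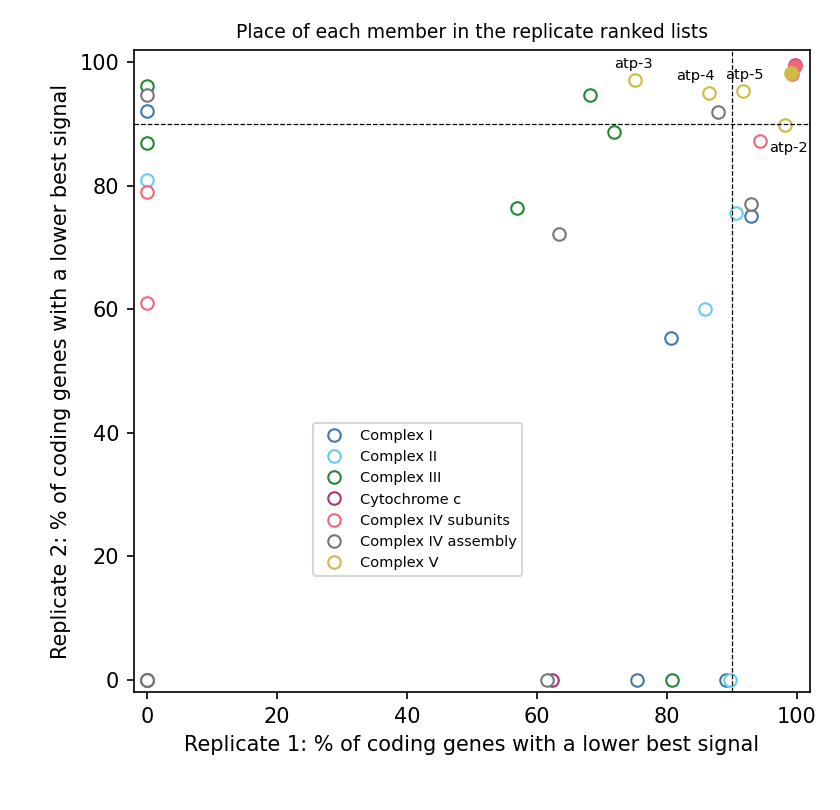
Place of each gene in the ranked list of replicate 1 (x axis) and of replicate 2 (y axis), as the percentage of protein-coding genes with a lower best signal, with genes that have no summit at 0 and dashed lines at 90%. The 4 genes with a conservative peak lie above 98% in both replicates, and among the others some, such as atp-3 at 75.1% and 97.1%, differ between replicates.

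Complex IV was divided. Its 7 structural subunit genes included cox-5A, cox-5B and cox-4, all in the top decile, but 2 of the 7, cox-6B and cox-7C, had no summit in the conservative ranked list, and the lowest of the others had a signal of 13.4. In replicate 2 cox-7C had a summit with a signal of 10.3. The gene cox-4 had a signal of 38.2 at 396 bp upstream, inside an intron of a pseudogene, with 18.6 (above 94.3%) and 18.8 (above 87.3%) in the replicates. Among the 8 genes of assembly and maturation factors, 5 had a summit, with signals of 15.2 to 38.3. The highest was cox-15, needed for making haem A, with 38.3 at 57 bp downstream and 15.1 and 21.2 in the replicates. The copper chaperone gene cox-17 was also in the top decile, at 32.5. No assembly factor gene had a thresholded peak, and at the share of 1.69% over all protein-coding genes that does not set these 8 genes apart. In all, 5 of the 15 complex IV genes were in the top decile of the conservative ranked list and 5 had no summit in it, and each replicate had 4 in its top decile. Of those 5, cox-14 had a summit in replicate 2 with a signal of 23.3, above 94.7% of protein-coding genes, and was named after its values were seen.

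Complexes I, II and III had no thresholded peak at any of their 17 genes. Of all protein-coding genes, 1.69% had one in any of the lists. At that share, none among 17 genes does not set these complexes apart. In complex III, 5 of 7 genes had a summit, with signals of 23.8 to 33.2. The highest was cyc-1, the gene of cytochrome c1, with 33.2 at 210 bp downstream, and ucr-11 followed at 32.6. Both were in the top decile. The replicates of cyc-1 differed, with 9.96 (above 68.1%) and 23.3 (above 94.6%). The core protein gene ucr-2.1 had 31.8 with its summit 498 bp downstream, just inside the window. In complex I, 4 of 6 genes had a summit, with signals of 21.5 to 31.6. The highest, nuo-4, a subunit gene, had 31.6 at 131 bp upstream, in the 3' UTR of rnp-7. Its best summit in replicate 1 was at another place, 484 bp downstream, with 17.5. In replicate 2 it was 122 bp upstream, with 14.8. In complex II all 4 genes had a summit, with signals of 15.8 to 28.5, and sdha-1, the flavoprotein subunit gene, had the highest, 370 bp upstream. None of the 10 genes of complexes I and II was in the top decile of the conservative ranked list. In replicate 1 nuo-4 (above 92.8%, by its downstream summit) and sdha-1 (above 90.7%) were in it. In replicate 2 nuo-2 (above 92.1%) was, a gene named after its values were seen. In the conservative ranked list the median gene was above 76.3% of protein-coding genes in complex I, 62.4% in complex II, 79.7% in complex III, 65.8% over all of complex IV and 95.9% in complex V. The replicates ordered the first 4 complexes differently. In replicate 1 the medians were 78.0%, 87.8%, 57.0%, 0% and 91.8%, and in replicate 2 they were 27.7%, 67.9%, 86.9%, 72.2% and 95.4%, in the same order of complexes. Complex V had the highest median in each of these lists, and with 4 to 15 genes a group the medians are descriptions only.

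Outside the 500 bp window, sdhd-1, the membrane anchor gene of complex II, had an optimal peak 892 bp upstream with a signal of 53.1, and a peak of the replicate 2 thresholded list 926 bp upstream with 35.5. Both lie in an intron of ilkp-1. The gene cox-4 had 2 optimal peaks downstream, 1126 bp away with a signal of 3.69 and 1332 bp away with 33.2, both in the coding sequence of sac-2. The gene sdhd-1 was named after these values were seen. The 9 genes with no summit in the conservative ranked list were nuo-3, nuo-6, ucr-2.2, ucr-2.3, cox-14, cox-16, cox-19, cox-6B and cox-7C, also named for that reason. Some of them had a summit in other lists. Besides cox-14 and cox-7C, ucr-2.3 had one in both replicate ranked lists, with 7.12 and 15.1. The gene nuo-6 had one in replicate 1, with 11.6. The 5' ends of cox-6B differ by 86539 bp between Ensembl and RefSeq, so its window is uncertain.

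Of the 4 conservative summits 3 were intergenic and none lay in another gene. The summit at cyc-2.1 lay in the gene's own 5' UTR by the Ensembl annotation, but 531 bp upstream of the RefSeq 5' end. Of the other 26 best summits, 3 were intergenic, 12 lay in the gene itself and 11 in another gene. These places were not counted over all protein-coding genes, so they are not read as a trait of the respiratory chain genes. The median distance from the 5' end was 55 bp for the 4 genes and 254.5 bp for all 30. This order depended on the annotation, since the same summits lay a median of 335 bp and 297.5 bp from RefSeq 5' ends. Over all protein-coding genes the median was 177 bp with a conservative summit and 222 bp with any ranked summit. Summits were upstream at 17 of the 30 genes, and 8 lay within 100 bp of the 5' end. Among protein-coding genes with a ranked summit 45.8% were upstream, and with a conservative summit 72.6%. Within 100 bp of the 5' end lay 22.7% and 29.7%, in the same order, so 8 of 30 is near the share of all genes.

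**Figure D4:**
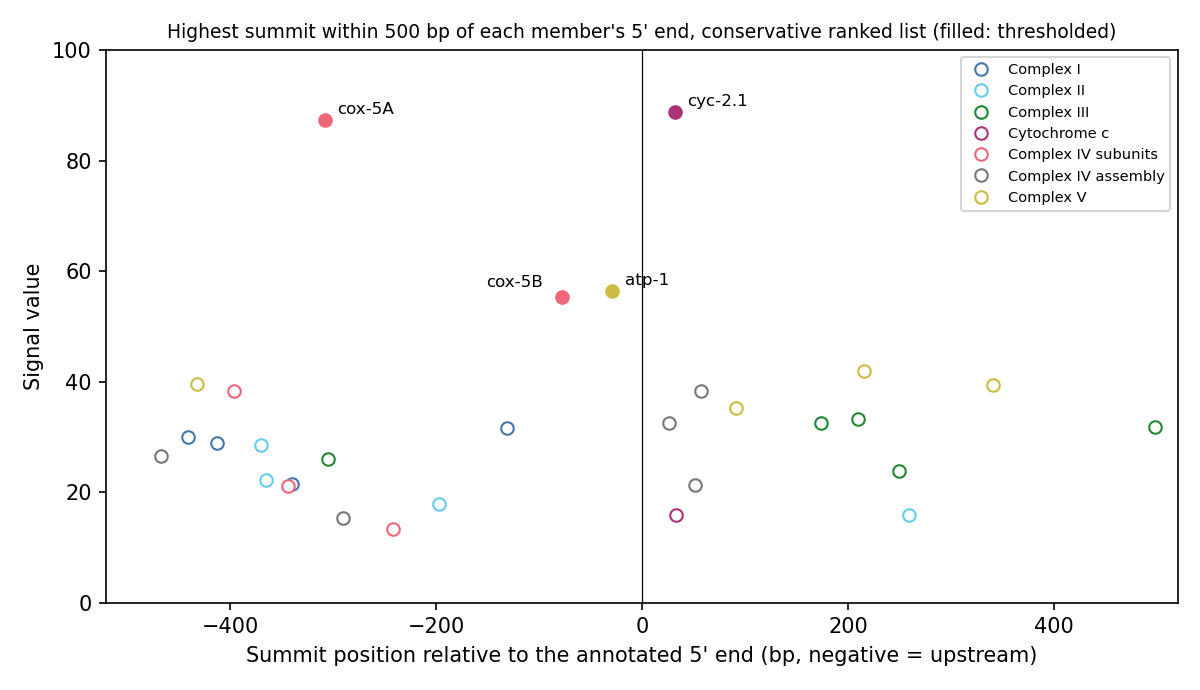
Position of the best summit relative to the annotated 5' end in bp (x axis, negative upstream) against signal value in the conservative ranked list (y axis) for the 30 genes with a summit, with filled points for the 4 genes with a conservative peak. Of these 4, cyc-2.1, atp-1 and cox-5B lie within 100 bp of the 5' end and cox-5A lies 308 bp upstream.

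Other genes of the respiratory chain, or of functions tied to it, carry names that the rule does not take. A list of 40 such names gave 28 genes in the annotation, all nuclear, and 1 of them had a conservative peak (3.57%, against 1.32%). This was ant-1.1, an ADP/ATP carrier that exchanges the product of complex V across the inner membrane, with a signal of 76.4 at 55 bp upstream. Of the 28 genes, 20 had a ranked summit and 8 were in the top decile (9.99% of protein-coding genes). They included mev-1, the cytochrome b subunit gene of complex II, with 45.5 at 112 bp upstream, which is higher than any complex II gene among the 39. They also included the ATP synthase genes hpo-18 with 43.9 and asb-2 with 37.9, and the complex I gene nduf-11 with 40.7. The remaining ATP synthase genes of the list were lower, with asb-1 at 29.1, asg-2 at 12.5 and asg-1 without a summit, so the high place of complex V did not hold for every subunit gene.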

How the data were processed

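The starting point was 8 peak lists on ce11, derived by the authors from the filtered alignments of 1 or both replicates, per the file headers. The authors' peak caller gave each peak a signal value, deposited with no stated scaling. The −log10 of the global IDR was deposited in the 4 ranked lists. The peak caller is not given in the sources used here, and the control experiment named in the labels was not used here. The 4 ranked lists hold 32 columns with no sample name, which were not used. The conservative and optimal ranked lists were told apart by which of them holds every peak of the thresholded list.

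Summits were compared with 5' ends of Ensembl release 115 genes, using a window of 500 bp, and the best summit of a gene was that of highest signal. It was taken in each list apart, so it can lie at different places in the lists. Distances and coordinates are 1-based. Words were searched in 101 bp windows on both strands. The summit search was tested on simulated summits and recovered all planted ones. No test was run.

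The genes and lists were chosen with earlier results of these data known. Genes named were those with a thresholded peak, the 5 next in signal, and the highest of each complex. The genes cyc-2.2, atp-4, cox-17, ucr-11 and ucr-2.1 were named outside this rule. Others are marked or belong to the fixed lists. Alternatives changed the window, threshold, list and annotation. The software was pandas 2.3.3 and numpy 2.4.6 under Python 3.11.15, with plots from matplotlib 3.10.9.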

Additional observations from a re-analysis of the deposited data

How the results depend on the processing

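No paired analysis was possible because the replicates form a single group. Among 60 alternatives, 50 stayed within 1.5 times the reported one. Some of the 50 could not move. A narrower window cannot raise the counts of complexes I, II and III, which were 0. Leaving out assembly factors cannot change the thresholded counts, since none of these genes had a thresholded peak. The 50 is therefore no measure of how stable the results are. The other 10 follow. The count of genes with a conservative peak, 4, ranged from 1 to 2 when the list of 1 replicate was used alone, being 1 without replicate 1 and 2 without replicate 2, and was 2 among peaks at or above the median signal of the list. The replicate lists are shorter, so a gene can be missed there for that reason too. The optimal count of 3 became 5 with summits within 1000 bp. The ranked count of 30 became 19 within 250 bp. The median distance of 55 bp became 32 bp in the optimal list. The complex IV count of 2 became 1 in the optimal list and 1 within 250 bp. With RefSeq 5' ends, an alternative chosen after seeing the data, the conservative count was 3, without cyc-2.1, the optimal count was 2, and the median distance became 335 bp for the same 4 genes and 308 bp for the 3 still within the window. Of the 4 genes, cox-5B was absent from the optimal list and both replicate lists, atp-1 from both replicate lists, cox-5A from that of replicate 2 and from the 250 bp window, and cyc-2.1 from the window with RefSeq 5' ends. Sequencing depth is unknown, and signal values cannot be compared between lists.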

Other observations

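Gene groups of related function gave a range of values in the same lists. Of all protein-coding genes, 1.32% had a conservative peak and 9.99% were in the top decile. Among 81 cytosolic ribosomal protein genes, 16 (19.8%) had a conservative peak, 42 were in the top decile by signal, and the median gene was above 90.1% of protein-coding genes. Among 70 mitochondrial ribosomal protein genes, 1 had a conservative peak (1.43%), 10 were in the top decile and the median was 65.3%. The 15 genes of the tricarboxylic acid cycle, the 20 of the vacuolar ATPase and the 8 of mitochondrial import had no conservative peak, with medians of 77.8%, 72.9% and 69.4%. At a share of 1.32%, having none in 8 to 20 genes does not set a group apart. The 39 respiratory chain genes had a median of 79.7%, close to that of the tricarboxylic acid cycle genes. The 5 ATP synthase genes matched by the name rule had a median of 95.9%, and of those outside the rule some were lower. The groups differ in size and were not tested against each other.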
